A study of Ambystoma mexicanum with 6 samples.

Results

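In the axolotl gene annotation used for this study, 57823 of the 99126 gene models carried no name, meaning that the symbol column of the count table repeated the model's own identifier. Of these, the 1345 models that lay outside the mitochondrial genome and averaged at least 30 counts over the 6 libraries were chosen by that mean, and their behaviour in cells driven into senescence is described here. They made up 2.33% of the unnamed models. By contrast, 46564 unnamed models (80.5%) had 0 counts in all 6 libraries. The table classed all 1345 as protein coding and gave a description for 0 of them, so each is called by its identifier and no identity is given to any. Because the mean count chose these models, their abundance is a description of the choice and carries no test.

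The libraries came from AL1 cells, a wild-type (WT) fibroblast line of the axolotl Ambystoma mexicanum. In the treated group, 3 libraries came from cells that received etoposide at 10 µM together with nutlin-3a at 1 µM over 24 hours and then nutlin-3a alone at 1 µM over another 11 days. In the DMSO group, 3 libraries came from cells that received the solvent in equal volume and were passaged over the 12 days so that they did not become confluent. Both groups were harvested at day 14. The groups differ in drug exposure, in senescence and in whether the cells still divided, and these cannot be told apart. No label states that the 3 libraries per group were grown as separate cultures, and the p-values cover only the spread between libraries, which could be technical.

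Etoposide traps topoisomerase II on DNA and leaves breaks, and nutlin-3a keeps MDM2 from binding p53, the transcription factor that halts division after DNA damage. Cells arrested in this way stay alive and change much of their gene expression. A gene model is a set of exons placed on the genome by an annotation, and it usually receives a name by likeness to a gene known in another species. The axolotl genome is very large and its introns are often long, so a gene's exons can be spread far apart.

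Library totals lay between 33083856 and 46686876 counts in treated cells and between 28604727 and 33633869 in DMSO cells. The mitochondrial genome took 7.86 to 9.15% of counts in treated cells and 7.90 to 12.1% in DMSO cells, where replicate 1 stood apart. Of the 11 fibroblast markers looked for, 10 were matched, with a summed level of 7687 to 9402 CPM (counts scaled to a common library total, as used for all levels here) in treated cells and 7231 to 7487 in DMSO cells. Nearly all of it was VIM, which did not pass the test described below (log2 fold change 0.28), while COL1A1 (-0.62), COL1A2 (-0.81) and FN1 (-1.02) fell and no fibroblast marker rose. PRRX1, DCN and THY1 were at or near 0. Of markers of other cells, the 5-marker blood and immune list summed to 382 to 466 CPM in treated cells and 162 to 185 CPM in DMSO cells, nearly all CD74, with PTPRC and SPI1 at 0 in every library. Of the 5 epithelial markers, 2 were matched, summing to 933 to 1146 CPM in treated cells and 1294 to 1417 CPM in DMSO cells; nearly all of it was KRT18, which fell (-0.40), while KRT5 rose (1.87). The endothelial (4 of 4 markers matched), muscle (2 of 5), glia and neuron (5 of 5), and red cell (1 of 4) lists each summed to 7.27 CPM or less in every library, with CDH5 and HBA1 at 0. Whether these markers move with the unnamed models for a shared reason was not tested.

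The unnamed models held a larger share of the RNA counts in treated cells than in DMSO cells. Their share of library counts was 5.17, 5.56 and 5.46% in the treated libraries, against 3.58, 3.93 and 4.11% in the DMSO libraries. The groups did not overlap, and the means were 5.40 ± 0.198% in treated cells and 3.88 ± 0.267% in DMSO cells (SD, n = 3 each), a ratio of 1.39. In bulk libraries such as these, fewer cells of a type and less RNA per cell cannot be told apart. The single most abundant model, AMEX60DD051970, took 0.977, 0.970 and 1.03% of counts in treated cells and 0.187, 0.220 and 0.241% in DMSO cells. Its mean share was 0.776 percentage points higher in treated cells, out of 1.52 points for all 1345 models. Without it, the share was 4.20, 4.59 and 4.43% in treated cells and 3.40, 3.71 and 3.87% in DMSO cells, and the groups still did not overlap. The mean share of the 10 most abundant models was 1.20 percentage points higher in treated cells. Without those 10, the share was 2.04, 2.07 and 2.05% in treated cells and 1.66, 1.76 and 1.79% in DMSO cells. The unnamed models below the count minimum ran the other way, with mean shares of 0.0748% in treated cells and 0.0890% in DMSO cells.

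**Figure D1:**
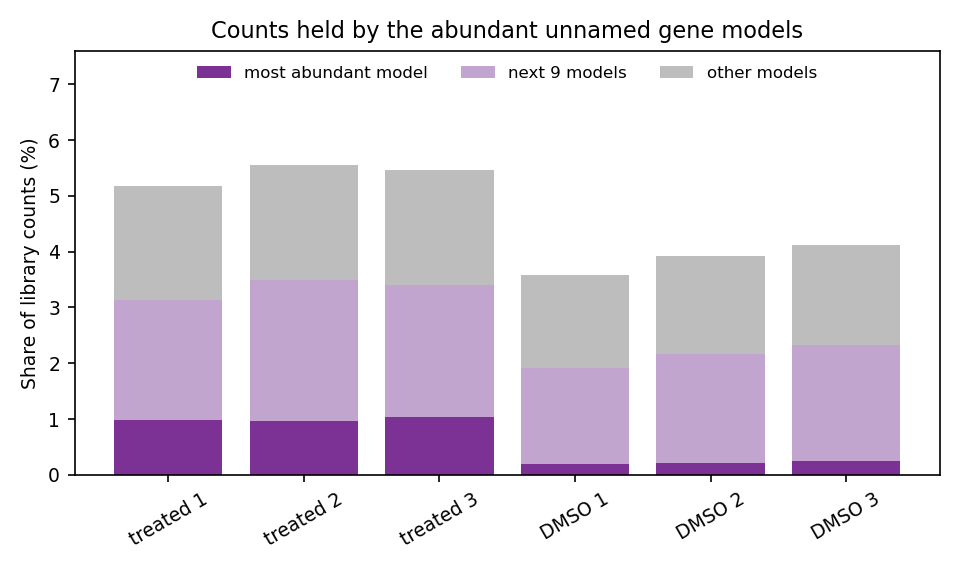
Percent of each library's counts held by the 1345 unnamed models (y axis), for the 3 treated libraries on the left and the 3 DMSO libraries on the right, with each bar divided into the most abundant model, the next 9 and the others. Treated bars reach 5.17 to 5.56% and DMSO bars 3.58 to 4.11%, and the segment of the most abundant model is near 1% in treated cells and near 0.2% in DMSO cells.

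Counts were concentrated in a few of the models. Over all libraries, AMEX60DD051970 held 14.0% of the counts that fell in the 1345 models, the top 5 held 47.9%, the top 10 held 59.5% and the top 100 held 86.8%. At the other end, 686 models (51.0%) averaged under 100 counts, and 124 averaged 1000 or more. The median of the mean counts was 96.2, against 313 for the 12748 named models with the same minimum of 30 counts. Per kilobase of exon the order was not the same: the unnamed models had a median of 86.9 counts per kb and the named models 82.1 counts per kb. Just inside the minimum lay AMEX60DD001066 and AMEX60DD006198, both with a mean of 30 counts. Just outside it were AMEX60DD018214 and AMEX60DD040869, both with 29.7.

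The unnamed models were shorter, had fewer exons and covered less of the genome than the named models. Length, the number of exonic bases in the table, had a median of 1374 bases (interquartile range 698 to 2764) in the unnamed models and 4074 bases (2454 to 6596) in the named models. Exons were counted after merging the overlapping exon entries that the table lists for a model. The median was 3 exons in the unnamed models and 9 in the named models. A single exon made up 394 unnamed models, or 29.3% (exact binomial 95% interval 26.9 to 31.8%), and 795 named models, or 6.24% (5.82 to 6.67%). The intervals treat the models as independent draws, although these are all the models that met the rule, and carry no test. A further 442 unnamed models (32.9%) had 2 to 3 exons and 509 (37.8%) had 4 or more, while 84.2% of the named models had 4 or more.

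The genomic span from the first to the last exon base had a median of 17.0 kb in the unnamed models and 294 kb in the named models. Spans of 100 kb or more were found for 320 unnamed models (23.8%) and for 74.8% of the named models. Span was a median of 8.55 times the Length in the unnamed models and 68.6 times in the named models. The models below the count minimum differed again: their median Length was 352 bases and 63.0% had a single exon. The difference in counts per model between unnamed and named models stood beside a difference in Length, with counts per kb close to each other. A minimum set on counts demands more counts per kb of a shorter model. The choice itself therefore affects these medians per kb, and no account of the lower counts is drawn from them. Splitting by exon number, counts per kb had medians of 90.8, 87.6 and 83.4 in the unnamed models with 1, 2 to 3 and 4 or more exons.

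**Figure D2:**
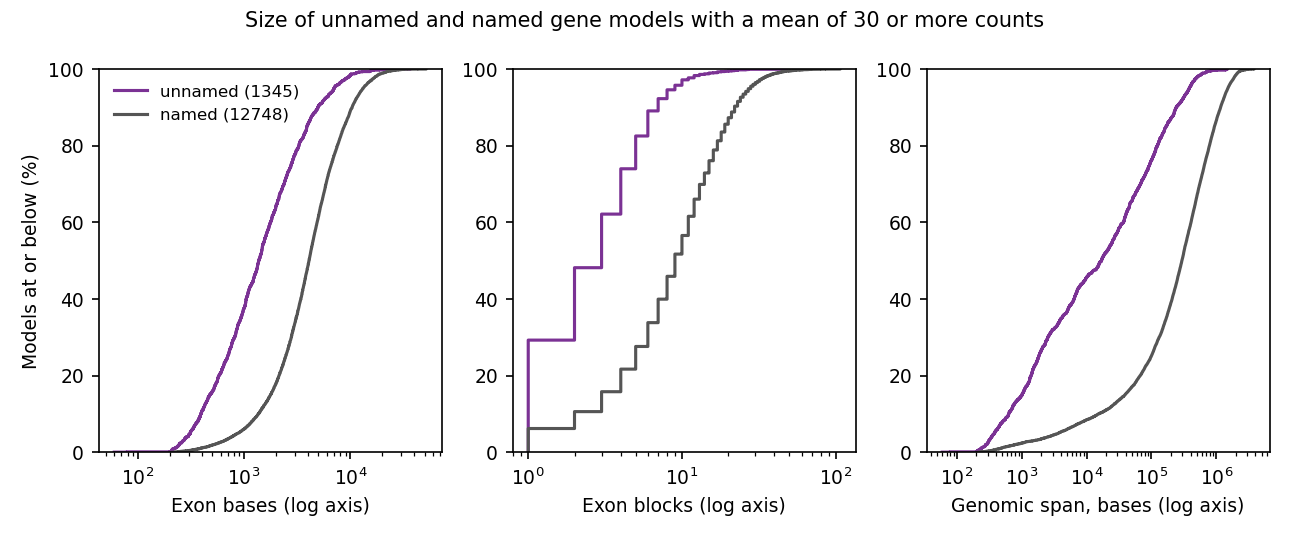
Cumulative share of models (y axes) by Length in bases, number of exons and genomic span (x axes, log scale), for the 1345 unnamed models and the 12748 named models with the same count minimum. The curves of the unnamed models lie to the left in all 3 panels, with medians of 1374 against 4074 bases, 3 against 9 exons and 17.0 against 294 kb.

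Some unnamed models had many exons or very long spans. AMEX60DD018220, on the plus strand of chromosome arm 1q at 564940798 to 565172712 (coordinates throughout are those of the AmexG_v6_DD assembly), had 48 exons and 15209 exonic bases, and its exons overlap those of another model with 30 or more counts. It gave 36.8, 55.3 and 40.8 CPM in treated cells and 47, 51.3 and 52.7 CPM in DMSO cells, and the groups overlapped. AMEX60DD024763 on 2q had 27 exons over a span of 1442525 bases and fell by 0.77 ± 0.23 on the log2 scale (± SE here and below; adjusted p = 0.0128, edgeR's quasi-likelihood test with Benjamini-Hochberg adjustment over all models tested). AMEX60DD039848 on 5q had 26 exons and gave 9.62, 10.1 and 10.5 CPM in treated cells, all below the 11.6, 13.9 and 13.5 CPM in DMSO cells. Its log2 fold change of -0.36 had an adjusted p of 0.0411 in that test, and the call was lost under 7 of 11 alternative settings.

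Among the longest spans, AMEX60DD044313 on 6q covered 1468403 bases with 22 exons, and its levels of 2.39, 1.78 and 1.52 CPM in treated cells overlapped the 1.81, 2.42 and 1.81 CPM in DMSO cells. AMEX60DD033508 on 4p covered 1378227 bases with 16 exons. It gave 28.9, 28.4 and 29 CPM in treated cells and 44.5, 50.9 and 48.0 CPM in DMSO cells, without overlap, and fell by 0.73 ± 0.11 on the log2 scale (adjusted p = 0.000103 in the edgeR test). Only AMEX60DD039848 among these 5 models has a span that overlaps no other model.

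The models were spread over all 28 chromosome arms, with the most on 1p (92), 2q (82) and 1q (79). A further 143 (10.6%) lay on sequences not placed on a chromosome, against 3.69% of the named models. The counts were less evenly spread than the models. Arm 8q held 35 of the models but 20.2% of their counts, and 3p, 3q and 1p held 11.4, 11.0 and 10.6%. These 4 arms carry the 4 most abundant models. Strand was given as plus for 697 models and minus for 639, and 9 models had exons on both strands.

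Library preparation did not mark the strand, so reads in exon bases shared by overlapping models cannot be told apart. The span of 479 unnamed models (35.6%) overlapped that of another model, as did that of 36.3% of the named models. Span overlap with a model of 30 or more counts was found for 276 unnamed models (20.5%) and 13.3% of the named models. Exons overlapped with those of any other model in 205 unnamed models (15.2%) and 18.1% of the named models. Exons overlapped with those of a model of 30 or more counts in 129 unnamed models (9.59%) and 8.05% of the named models. Lying wholly inside the span of a named model was found for 104 unnamed models (7.73%), against 1.79% of the named models.

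Treated and DMSO cells were compared to find which unnamed models changed with senescence induction. At an adjusted p below 0.05 in edgeR's quasi-likelihood test, 417 of the 1345 rose (31.0%) and 340 fell (25.3%), while 588 did not pass. Over all 17424 models tested, 25.5% rose and 26.8% fell. The median log2 fold change was 0.04 in the unnamed models, -0.03 over all models tested and -0.03 in the named models. The share that fell was therefore near that of all models, and the share that rose was 31.0% beside 25.5%, a difference that was not tested. Of the named models with the same count minimum, 27.1% rose and 29.4% fell. With scaling by library size only, 261 unnamed models rose and 504 fell, so that 34.1% of the calls were rises in place of 55.1%. Of all models tested, 13.3% rose and 40.3% fell with that scaling, so the move is not particular to the unnamed models. That scaling shifts the median of all models by -0.37 on the log2 scale, and changes here are relative to the main scaling.

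Since a model can reach a mean of 30 counts through its higher group alone, 229 of the 1345 had a lower group mean under 30, and a difference was built into the choice of these. They include 110 of the 417 rises and 71 of the 340 falls. Among the 1116 with at least 30 counts in both group means, 307 rose (27.5%) and 269 fell (24.1%), beside 26.4% and 28.6% of the 13087 models tested that met the same limit. The share that rose was thus close to that of all models once both groups had to reach the minimum. The share that fell was lower, at 24.1% beside 28.6%, and this difference was not tested.

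At least a 2-fold rise with an adjusted p below 0.05 was found for 261 unnamed models (19.4%), against 11.7% of all models tested and 9.63% of the named models. At least a 2-fold fall was found for 171 (12.7%), against 12.9% of all models and 12.0% of the named models. Of these, 102 rises and 62 falls were in models with a lower group mean under 30. Among the 1116 with both group means at the minimum, 159 rose at least 2-fold (14.2%) and 109 fell at least 2-fold (9.77%), beside 8.57% and 10.8% of all models that met the limit. Changes of at least 4-fold were 63 rises and 22 falls among the 1345 unnamed models. Over all 17424 models tested, 492 rose (2.82%) and 439 fell (2.52%) that far. Of the 63 and 22, those with both group means at the minimum numbered 29 and 9, out of 1116. Among all 13087 models that met the limit, 128 rose and 193 fell at least 4-fold. Under that limit, rises of this size outnumbered falls in the unnamed models, and falls outnumbered rises over all models. The 3 treated libraries lay above all 3 DMSO libraries in 454 unnamed models (33.8%; all models 28.8%) and below them in 383 (28.5%; all models 31.4%). These differences in share were not tested.

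**Figure D3:**
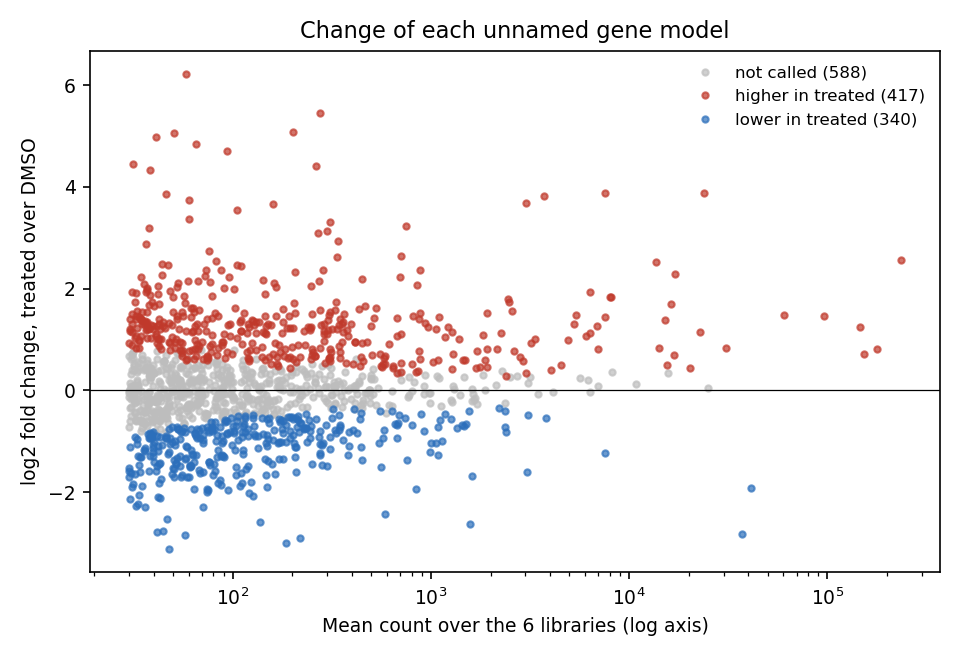
Log2 fold change of treated over DMSO (y axis) against the mean count over the 6 libraries (x axis, log scale), with 1 point for each of the 1345 unnamed models, coloured by whether it rose, fell or did not pass an adjusted p of 0.05. The 417 models higher in treated cells and the 340 lower in treated cells are mixed at low counts, and from 1000 counts up there are more rises (65) than falls (25).

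Abundant models rose more often than they fell. Each range was set by the unscaled mean over all 6 libraries, and most treated libraries had larger totals. A rise can therefore itself lift a model into a higher range, with or without a name. Of the 124 unnamed models with a mean of 1000 or more counts, 65 rose (52.4%) and 25 fell (20.2%), with a median log2 fold change of 0.41. Over all models tested in that range, 42.8% rose and 24.5% fell, with a median of 0.20, so rises outnumbered falls there with and without a name. Between 100 and 1000 counts, 33.6% of the unnamed models rose and 28.0% fell, beside 22.8 and 34.1% of all models tested. Under 100 counts, 25.1% rose and 24.1% fell, beside 20.9 and 24.3% of all models.

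Rises were most frequent in models with a single exon. Among single-exon models, 142 of 394 rose (36.0%) and 95 fell (24.1%), with a median log2 fold change of 0.17. Single-exon named models had much the same figures: 33.0% rose, 25.9% fell and the median was 0.18. Among models with 2 to 3 exons, 136 of 442 rose (30.8%) and 104 fell (23.5%), while 26.7% of the named models of that class rose and 35.2% fell. In models with 4 or more exons, 139 of 509 rose (27.3%) and 141 fell (27.7%), beside 26.7 and 29% of the named models. Over all models tested, the shares that rose were 27.5, 23.1 and 25.7% for 1, 2 to 3 and 4 or more exons. Those that fell were 22.7, 28.3 and 27.1%. The classes were not limited to models with at least 30 counts in both group means.

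Shares of the unscaled library counts gave another order. Single-exon models held 0.244, 0.236 and 0.247% of library counts in treated cells, all below the 0.258, 0.267 and 0.263% in DMSO cells. More of them rose than fell, but those calls rest on scaled counts. The scaling factors were 0.780 to 0.958 in treated cells and 1.10 to 1.18 in DMSO cells, which raises treated levels relative to the unscaled shares. The shares and the calls are therefore not on the same scale. Models with 2 to 3 exons held 0.870, 1.09 and 1.01% in treated cells and 0.565, 0.616 and 0.651% in DMSO cells. Models with 4 or more exons held 4.06, 4.23 and 4.20% in treated cells, against 2.76, 3.05 and 3.20% in DMSO cells. The larger share of counts in treated cells thus lay in multi-exon models, among them the most abundant ones.

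Of the 10 most abundant models, 7 rose, 2 fell and 1 did not pass. AMEX60DD051970 was the first of them, a 12-exon model of 2287 bases on the plus strand of 8q at 99135796 to 99326418. Its levels were 10212, 12453 and 11388 CPM in treated cells and 1587, 1945 and 2187 CPM in DMSO cells. Every treated library was above every DMSO library, and the log2 fold change was 2.57 ± 0.18 (adjusted p = 8.49e-08, edgeR's quasi-likelihood test). It overlaps another model, which has fewer than 30 counts. The nearest named model outside it, SNCG, is 665 kb away and had a mean of 4.5 counts.

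AMEX60DD026859, with 12 exons on the plus strand of 3p at 165295364 to 165305350, gave 5882, 6877 and 6478 CPM in treated cells and 3355, 3739 and 3792 CPM in DMSO cells. It rose by 0.82 ± 0.15 on the log2 scale (adjusted p = 0.000391 in the edgeR test), with no overlap between groups. AMEX60DD016339, with 4 exons on the minus strand of 1p at 1224169412 to 1224176636, gave 5389, 6131 and 5811 CPM in treated cells, against 2043, 2473 and 2779 CPM in DMSO cells. The groups were well apart, and the log2 fold change was 1.25 ± 0.16 (adjusted p = 2.25e-05). AMEX60DD024268, with 5 exons on the plus strand of 2q at 617239126 to 617312901, gave 3520, 4742 and 3796 CPM in treated cells and 1319, 1455 and 1597 CPM in DMSO cells. The groups were again apart, with a log2 fold change of 1.46 ± 0.16 (adjusted p = 5.78e-06), and LGALS4, the named model 0.652 kb away, had a mean of 1 count.

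AMEX60DD029926, with 4 exons on the minus strand of 3q at 572840732 to 572844364, gave 4007, 7869 and 4900 CPM in treated cells and 2595, 3507 and 4090 CPM in DMSO cells. Treated replicate 2 stood high and treated replicate 1 lay below DMSO replicate 3, so the groups overlapped. Its log2 fold change was 0.72 ± 0.23 (adjusted p = 0.0199 in the edgeR test), and the call was lost in 5 of 11 alternative settings, among them leaving out treated replicate 2 (0.40), DMSO replicate 1 (0.55) or DMSO replicate 2 (0.73). AMEX60DD042523, with 3 exons on the plus strand of 6p at 664963591 to 664972579, had the same order of libraries within each group. It gave 830, 1588 and 1033 CPM in treated cells and 504, 668 and 772 CPM in DMSO cells. The groups did not overlap, the log2 fold change was 0.83 ± 0.22 (adjusted p = 0.00589), and the call was lost with scaling by library size only (0.43). AMEX60DD038964, with 2 exons on the minus strand of 5q at 63268218 to 63277741, gave 1674, 3348 and 2745 CPM in treated cells and 858, 919 and 1005 CPM in DMSO cells. The treated libraries differed widely among themselves but all exceeded the DMSO libraries, with a log2 fold change of 1.48 ± 0.21 (adjusted p = 5.97e-05). Its span overlaps that of LOC113837993, a model with a mean of 58 counts, but their exons do not overlap.

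Both abundant models that fell did so by a wide margin. AMEX60DD047169, with 6 exons on the plus strand of 7p at 177865433 to 177870097, gave 265, 244 and 286 CPM in treated cells and 1687, 1908 and 2001 CPM in DMSO cells. It fell by 2.81 ± 0.14 on the log2 scale (adjusted p = 1.03e-08 in the edgeR test), a change to 0.142 times the DMSO level. AMEX60DD052120, with 6 exons on the plus strand of 8q at 191263166 to 191447591, gave 435, 589 and 471 CPM in treated cells and 1776, 1855 and 1990 CPM in DMSO cells. It fell by 1.91 ± 0.15 on the log2 scale (adjusted p = 2.98e-07) and lies on the same arm as AMEX60DD051970, which rose. AMEX60DD055143, with 5 exons on 9q, gave 590, 891 and 724 CPM in treated cells and 527, 732 and 884 CPM in DMSO cells, with a log2 fold change of 0.04 ± 0.19 (adjusted p = 0.870). Its groups overlapped, and the sign of its change depended on the setting.

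**Figure D4:**
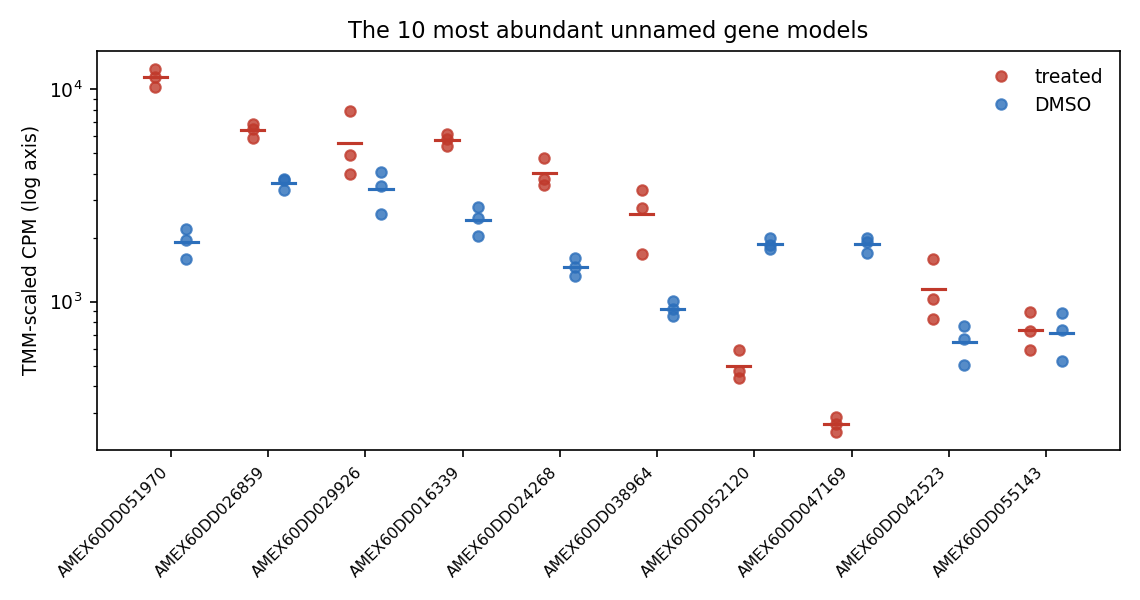
CPM after scaling (y axis, log scale) of the 10 most abundant unnamed models, with 1 point per library, a line at each group's mean and the treated libraries left of the DMSO libraries for each model. AMEX60DD051970 shows 10212 to 12453 CPM in treated cells and 1587 to 2187 CPM in DMSO cells, AMEX60DD047169 and AMEX60DD052120 run the other way, and AMEX60DD055143 overlaps.

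Counts per kilobase of exon put the models in another order. AMEX60DD016339 led with 161816 counts per kb, followed by AMEX60DD029926 with 154637 and AMEX60DD026859 with 120494. AMEX60DD051970 had a higher mean count than these 3, 236020, but a greater Length.

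Among models with a mean of 100 or more counts and no overlap between groups, the 3 with the largest rises were scarce in DMSO cells. AMEX60DD005583, with 7 exons on the plus strand of 11q at 859164889 to 859260050, had 619, 476 and 528 counts in treated cells and 8, 13 and 15 counts in DMSO cells. Its log2 fold change was 5.45 ± 0.26 (adjusted p = 7.25e-09, edgeR's quasi-likelihood test). AMEX60DD020557, with 5 exons on the plus strand of 2p at 171540190 to 171644855, had 442, 363 and 368 counts in treated cells and 16, 7 and 11 counts in DMSO cells, a log2 fold change of 5.09 ± 0.27 (adjusted p = 1.35e-08). AMEX60DD032518, with 5 exons on the minus strand of 4p at 59494836 to 59621525, had 719, 351 and 441 counts in treated cells and 29, 16 and 22 counts in DMSO cells, a log2 fold change of 4.42 ± 0.23 (adjusted p = 1.15e-08). These 3 passed the count minimum through the treated group alone, so a difference was built into their choice.

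The other 3 of the 6 largest rises under that limit had 461 or more counts in every library. AMEX60DD044101, with 10 exons on the minus strand of 6q at 153062644 to 153240170, gave 365, 410 and 411 CPM in treated cells and 22.3, 27.6 and 31.0 CPM in DMSO cells. Its groups were far apart, with a log2 fold change of 3.87 ± 0.15 (adjusted p = 2.8e-09 in the edgeR test), and the nearest named model is 637 kb away. AMEX60DD051967 and AMEX60DD051972, both on 8q, rose by 3.89 ± 0.20 and 3.82 ± 0.20 on the log2 scale (adjusted p = 1.18e-08 and 1.15e-08) and belong to a group of neighbouring models on that arm.

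The 6 largest falls under the same limit ran from -3.0 to -2.44 on the log2 scale and include the abundant AMEX60DD047169 (-2.81). Over all 1345 models without the limit, log2 fold changes ran from -3.11 to 6.21. AMEX60DD034015, with 3 exons on the minus strand of 4p at 874934892 to 875051380, had 46, 24 and 59 counts in treated cells and 355, 340 and 288 counts in DMSO cells. Its log2 fold change was -3.0 ± 0.21 (adjusted p = 1.08e-07 in the edgeR test), while ASCC3, the named model 0.092 kb away, rose by 0.63 (adjusted p = 0.0186). AMEX60DD001093, with 4 exons on the plus strand of 10p at 464761346 to 464831533, had 64, 42 and 55 counts in treated cells and 374, 408 and 373 counts in DMSO cells. It fell by 2.91 ± 0.19 (adjusted p = 5e-08), and its exons overlap those of WSB2, which rose by 0.51 (adjusted p = 0.0435), so that reads in the overlap cannot be assigned to one of the pair.

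AMEX60DD003045, with 9 exons on the minus strand of 10q at 447537397 to 447544957, was better measured, with 524, 349 and 484 counts in treated cells and 2800, 2747 and 2539 counts in DMSO cells. It fell by 2.63 ± 0.12 on the log2 scale (adjusted p = 5.52e-09 in the edgeR test), and the nearest named model, PHB2, lies 2287 kb away. AMEX60DD039032, on the minus strand of 5q at 97662026 to 98673475, spreads its 21 exons over 1011450 bases. It had 236, 105 and 234 counts in treated cells and 1154, 976 and 814 counts in DMSO cells, and fell by 2.44 ± 0.16 (adjusted p = 5.18e-08). AMEX60DD012236, a single exon of 275 bases on 14q, had 60, 19 and 47 counts in treated cells and 220, 248 and 231 counts in DMSO cells, and fell by 2.58 ± 0.24 (adjusted p = 1.21e-06). In these 5 models and in AMEX60DD047169, the sixth by rule, every treated library was below every DMSO library.

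Unnamed models that lie near each other often changed in the same direction. Of 80 pairs of adjacent unnamed models no more than 500 kb apart, both were called in 40, and 34 of those pairs (85.0%) changed in the same direction. Within 10 kb the numbers were 26 pairs, 16 with both called and 15 in the same direction. For adjacent pairs of an unnamed and a named model within 500 kb, 251 of 385 pairs with both called shared their direction (65.2%), and for pairs of named models 1230 of 2037 (60.4%). Across the pairs the log2 fold changes had a Pearson r of 0.71 between unnamed models, 0.25 between an unnamed and a named model and 0.18 between named models. All pairs share the same libraries and scaling. Since strand was not marked, models that overlap can also share reads, and such pairs are not independent. The figures are therefore descriptive and no test was made.

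Chaining the 1202 unnamed models placed on chromosome arms over gaps of up to 500 kb gave 1103 groups. Of these, 1024 held a single model, 65 held 2 and 14 held 3 or more. In 6 of these 14, every model passed the test in 1 direction. No like count for named models stands beside this one, and 30.9% of the 1202 placed unnamed models rose and 25.8% fell. The 6 groups, with 20 models, were picked after their values were seen and are shown as a description.

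The group with the most counts lay on 8q at 98557718 to 99503575, a stretch of 946 kb. It holds 6 gene models, 4 of them among the 1345, and no named model of 30 or more counts. AMEX60DD051967, with 2 exons, gave 1013, 1650 and 1192 CPM in treated cells and 72.3, 86.3 and 102 CPM in DMSO cells. AMEX60DD051969, with 3 exons and on the minus strand, gave 582, 679 and 689 CPM in treated cells, against 92.1, 114 and 131 CPM in DMSO cells. AMEX60DD051972, with 4 exons, gave 154, 260 and 188 CPM in treated cells and 11.6, 14.8 and 16.3 CPM in DMSO cells. With AMEX60DD051970, all 4 were higher in every treated library, with log2 fold changes from 2.53 to 3.89. Together they took 1.14, 1.17 and 1.22% of library counts in treated cells and 0.208, 0.245 and 0.269% in DMSO cells. The nearest named models of 30 or more counts were BMPR1A, 1088 kb to the left with a log2 fold change of 1.03, and GLUD1, 2210 kb to the right with 0.46.

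On 5q, AMEX60DD040539, AMEX60DD040541 and AMEX60DD040542 at 1072469794 to 1073069717 rose by 1.83 to 2.19 on the log2 scale. AMEX60DD040541 had 13563, 11985 and 12715 counts in treated cells and 3604, 3469 and 3558 counts in DMSO cells. AMEX60DD040542 had 13498, 11646 and 12604 counts in treated cells and 3559, 3304 and 3565 counts in DMSO cells. The counts of these 2 models were nearly equal in every library, with ratios from 0.998 to 1.05, although they lie 166 kb apart on opposite strands and differ in Length (377 and 2090 bases). Whether the same reads entered both counts cannot be told from the table, so they are not 2 independent values. LOC115383123, a named model with a mean of 65.5 counts that lies inside the group, had a log2 fold change of 0.57 (adjusted p = 0.0559 in the edgeR test). The named models on either side of the group, LRRC6 and PHF20L1, had log2 fold changes of -0.68 and -0.28.

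On 4p, AMEX60DD032402, AMEX60DD032404, AMEX60DD032406 and AMEX60DD032407 at 30957532 to 31117462 are all single exons of 271 to 445 bases. They rose by 1.46 to 2.27 on the log2 scale. AMEX60DD032406 (mean of 73 counts in treated cells) and AMEX60DD032407 reached the count minimum through the treated group alone, so a difference was built into their choice. The nearest named models of 30 or more counts were DR999_PMT20382, 848 kb to the left with a log2 fold change of 0.65, and LOC115478329, 118 kb to the right with -0.52. AMEX60DD032404 had the most counts of the 4 and gave 4.95, 9.58 and 6.73 CPM in treated cells and 2.21, 2.54 and 2.92 CPM in DMSO cells.

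The other 3 groups fell. On 14q, AMEX60DD012235, AMEX60DD012236 and AMEX60DD012237 at 417204099 to 417405918 fell by 2.01 to 2.76 on the log2 scale. AMEX60DD012237, with the largest of these falls, averaged 12 counts in treated cells and reached the count minimum through the DMSO group alone. AMEX60DD012235 gave 1.45, 1.28 and 1.31 CPM in treated cells and 5.36, 5.71 and 5.36 CPM in DMSO cells. Flanking named models of 30 or more counts were BRMS1L, 464 kb to the left with a log2 fold change of -0.64, and MBIP, 949 kb to the right with -0.24. On 10p, AMEX60DD001668, AMEX60DD001669 and AMEX60DD001671 at 786636932 to 786868355 had log2 fold changes of -0.90 to -0.72. Here the flanking named models of 30 or more counts were EIF4A2, 372 kb to the left with 0.50, and SENP5, 3987 kb to the right with -0.62. KNG1, a named model with fewer counts, lies 223 kb to the right. A second 5q group, AMEX60DD040955, AMEX60DD040962 and AMEX60DD040963 at 1248812434 to 1249411089, had log2 fold changes of -1.46 to -0.51. Inside it lie models named PRDM9 (-0.36) and ZNF432 (-0.92), which fell too. The spans of AMEX60DD040962 and AMEX60DD040963 overlap on the minus strand, but their exons do not overlap. With the same limit of 30 counts, the flanking named models were another ZNF432, 165 kb to the left with -0.54, and LOC115476378, 159 kb to the right with -0.24. The calls of AMEX60DD040962, AMEX60DD001668 and AMEX60DD001669 were each lost under 4 or more of the 11 alternative settings.

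**Figure D5:**
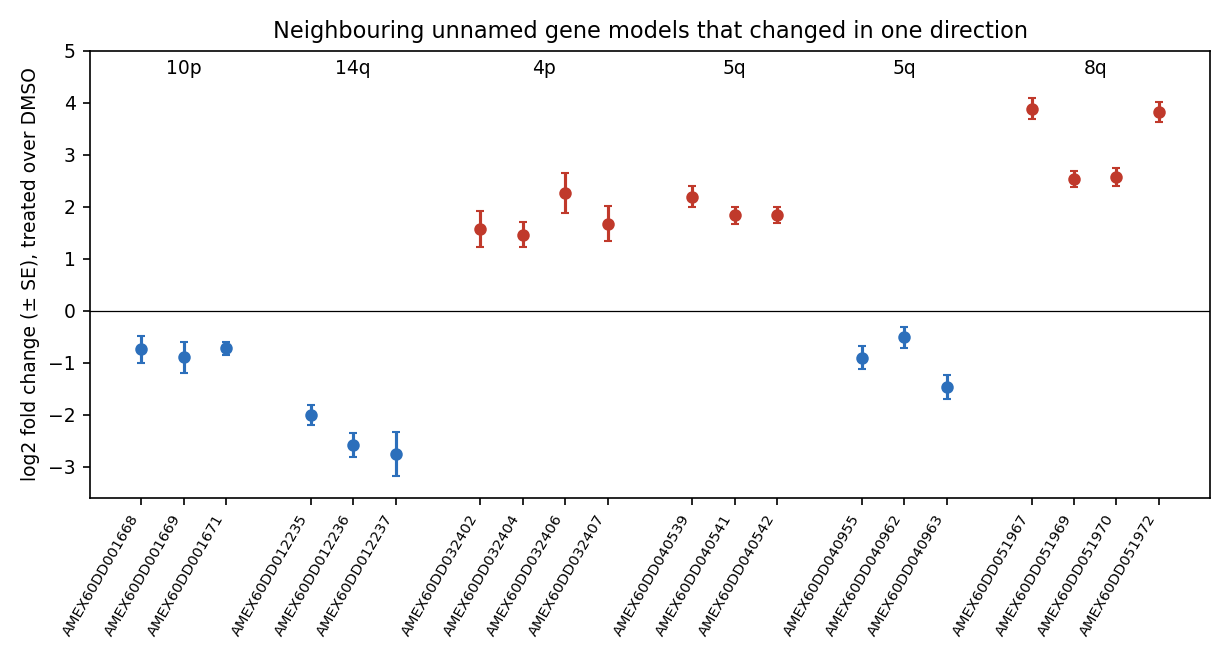
Log2 fold change of treated over DMSO with its standard error (bars) for the 20 models of the 6 groups of neighbouring unnamed models, arranged by group along the x axis under the name of the chromosome arm. The 4p, first 5q and 8q groups lie above 0, from 1.46 to 3.89, and the 10p, 14q and second 5q groups lie below it, from -2.76 to -0.51.

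The balance of rises and falls varied among chromosome arms. Among the 23 arms with 20 or more unnamed models, the share that rose was 44.7% on 7q (38 models; named models 26.9%), 41.8% on 1q (79 models; named 27.6%) and 40.0% on 13q (45 models; named 27.3%). The share that fell was 43.5% on 14q (23 models; named 31.8%) and 39.6% on 4p (53 models; named 30.7%). On 1q, 12.7% of the unnamed models fell, against 30.6% of the named models. The arms were ranked after their values were seen, and no test was made of the differences between them.

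Among models with a mean of 1000 or more counts, 3 had the smallest fold changes. AMEX60DD011488, with 7 exons on 14q, gave 198, 147 and 180 CPM in treated cells and 166, 190 and 179 CPM in DMSO cells. AMEX60DD046735, with 3 exons on 7p, gave 43.1, 48.6 and 45.6 CPM in treated cells and 42.7, 44.3 and 48.2 CPM in DMSO cells. AMEX60DD054195, with 20 exons on 9p, gave 38.6, 79.5 and 47.2 CPM in treated cells and 46.8, 56.6 and 60.1 CPM in DMSO cells. The groups overlapped in all 3, and the log2 fold changes were -0.03 ± 0.13, 0.02 ± 0.11 and 0.01 ± 0.21 (adjusted p of 0.877, 0.885 and 0.966 in the edgeR test).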

How the data were processed

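The authors deposited 1 table of read counts per gene model, whole numbers and not normalized, for the 6 libraries, made from polyadenylated RNA (1000 ng of total RNA) by a modified Smart-seq2 method with paired reads of 100 bp, per the labels' protocols. This method uses no molecular identifiers and does not mark strand. The submitters' processing notes name bcl2fastq 2.20.0, STAR 2.7.7a and featureCounts 2.0.1. The treatment of reads that match several places is not given in the sources used here. Coordinates are those of AmexG_v6_DD, per the table's name, and 0 of the 1345 identifiers were found in the RefSeq gene table at hand. No genome sequence of this build was used.

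Counts were tested with edgeR 4.0.16 in R 4.3.3: filterByExpr, TMM scaling, glmQLFit (robust) and glmQLFTest, with Benjamini-Hochberg adjustment over 17424 models. The standard error is the log2 fold change divided by the square root of F. CPM were computed with edgeR's cpm on the TMM-scaled library, with factors of 0.780 to 0.958 in treated cells (replicate 2 lowest) and 1.10 to 1.18 in DMSO cells. The procedure was also run on simulated counts with known changes and the same variability setting for every model, and no result here rests on that run. Alternatives were RLE scaling, library size only, DESeq2 1.42.0, no filter, a mean CPM of at least 1, and leaving out each library, plus other definitions of the set. 3 definitions were added after seeing the data.

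Models named in the text were the 10 most abundant, the 6 largest rises and 6 largest falls with a mean of 100 or more counts and no overlap between groups, the 3 highest in counts per kb, the 3 with the most exons and the 3 longest spans, those next to the count minimum, the 3 least changed with a mean of 1000 or more counts, and the most variable one. The models and lists were chosen with earlier results of these data known.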

Additional observations from a re-analysis of the deposited data

How the results depend on the processing

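No paired analysis was possible because the labels give no replicate numbers shared between the groups. Scaling by library size only moved the number of unnamed models that rose to 261 and the median log2 fold change to -0.33; the scaling itself shifts all models. Without low counts (a mean of 100 or more, so fewer models), 245 rose, 175 fell and 26.3% had 1 exon. Restricted to the 866 models that overlap no other, 192 fell, the difference in share of counts was 0.631 points and 36.8% had 1 exon; AMEX60DD051970 is not among them. Without AMEX60DD051970 the difference was 0.745 points. Leaving out 1 library at a time, 336 to 432 rose and 284 to 347 fell, and under RLE scaling, DESeq2, no filter and a mean CPM of at least 1, between 381 and 434 rose and 295 to 345 fell. No called unnamed model changed direction under another setting while still called. Over 48 of the models described individually and 11 settings, 526 results comprised 472 that kept direction and side of the threshold, 35 that lost the call, 2 that gained it and 17 that changed sign, all 17 in models not called. AMEX60DD055143 had -0.34 with library size only, -0.0045 with no filter and -0.14 to 0.22 with 1 library left out. AMEX60DD054195 had -0.39 with library size only, -0.038 with no filter and -0.34 to 0.22 with 1 library left out, and AMEX60DD046735 had -0.35, -0.024 and -0.023 to 0.069. AMEX60DD011488 had 0.0063 with RLE scaling and -0.12 to 0.093 with 1 library left out, and AMEX60DD044313 had -0.28 to 0.070. The cause was not tested. Depth limits most the 686 models that averaged under 100 counts.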

Other observations

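The unnamed models varied more between libraries of 1 group than the named models did. The median SD of log2 CPM was 0.28 in treated cells and 0.20 in DMSO cells for the unnamed models, and 0.21 in treated cells and 0.15 in DMSO cells for the named models, which also have higher mean counts. This difference was not tested. The most variable unnamed model with a mean of 100 or more counts was AMEX60DDU001010113, with 2 exons and 208 exonic bases on an unplaced sequence. It had 2045, 1818 and 3638 counts in treated cells and 1370, 1663 and 435 counts in DMSO cells, so that DMSO replicate 3 stood low. Its log2 fold change was 1.10 ± 0.34 (adjusted p = 0.0150, edgeR's quasi-likelihood test), its groups overlapped in CPM, and the call was lost in 6 of 11 alternative settings.

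Of the 143 unnamed models on unplaced sequences, 46 rose (32.2%) and 30 fell (21.0%), beside 23.6% and 22.2% of all models tested on such sequences. Named models there with the same count minimum had close figures, with 30.6% that rose and 23.1% that fell.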
